A study of Mus musculus with 24 samples.

Results

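The messenger RNA of T cells activated in the presence of a Toll-like receptor 2 (TLR2) agonist was compared between 72 h and 24 h of culture. The comparison takes the libraries whose group label is TLR2 at 72 h (4 libraries) and those labelled TLR2 at 24 h (4 libraries), 8 of the 24 libraries in the series, and all 24 were normalised together. Every mouse was of the OT-1 strain, in which a transgene gives CD8 T cells a receptor specific for ovalbumin peptide, so all groups share that receptor. Spleen cells were grown with 2 µg/mL of peptide, and TLR agonists went in 1 h before it. Both TLR2 groups received agonist and peptide, and they differ in time only. The labels name the agonist by group as TLR2. Pam3CSK4, listed at 300 ng/mL, is the listed agonist that acts on TLR2. The other groups, each also with 4 libraries at 24 h and 4 at 72 h, received peptide alone (OVA) or peptide with a TLR7 agonist. T cells were taken from the cultures by magnetic negative selection, so antigen-presenting cells had been present until that step. The labels give no age of the mice, and do not say whether replicates were separate mice or cultures. The p-values below therefore rest on the spread among these libraries alone, and that spread may be technical.

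TLR2 recognises bacterial lipopeptides together with TLR1 or TLR6 and signals through the adaptor MyD88 to NF-kB. It is carried by antigen-presenting cells and also by activated T cells, where it can act as a costimulatory receptor. A T cell that meets its peptide first enlarges, makes ribosomes, copies its DNA and secretes cytokines, and over the following days divides and takes on effector or memory-like programmes. Transcription factors behind parts of this course include HIF-1, which answers low oxygen and drives glycolysis genes, ATF4, which answers amino acid shortage, and the E2F factors, which drive genes of DNA replication.

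The 24 h and 72 h libraries were not equally far apart, and this touches every result. On the first principal component of log2 CPM (read counts scaled to library size), which held 60.2% of the variance of all 24 libraries, the 4 TLR2 24 h libraries lay between 85.2 and 99.1. TLR2 72 h replicate 2 lay at -87.8, among the other clear 72 h libraries (-90.5 to -56.5). TLR2 72 h replicates 1, 3 and 4 lay at -13.1, -8.8 and -11.4, midway between the times, as did 5 libraries of other groups (8 in all, -20.5 to -1.2). The 72 h group thus holds 3 libraries of 1 kind and 1 of another, numbered here as in the sample titles (the deposited tables carry other replicate numbers, and each was tied to its sample by the GEO record). Below, each list is also given without replicates 1, 3 and 4, where the lone replicate 2 is assumed to vary like the other groups, and without replicate 2; these counts per list were added after seeing the data. Library totals in the TLR2 groups were 22.8 to 27.1 M counts, except 11.6 M in 24 h replicate 4.

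**Figure D1:**
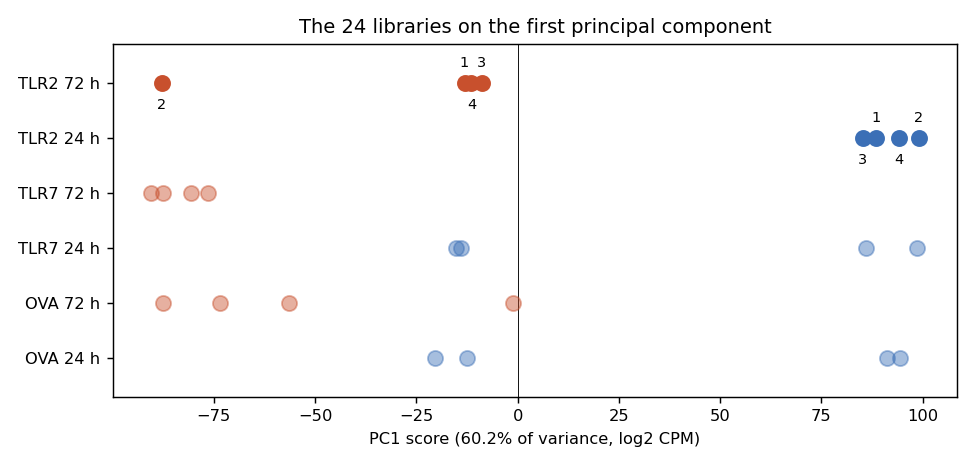
Position of each of the 24 libraries on the first principal component of log2 CPM (x axis, no unit), by group (rows); the TLR2 libraries carry their replicate number. TLR2 72 h replicates 1, 3 and 4 sit between -13.1 and -8.8, away from both replicate 2 at -87.8 and the 24 h libraries at 85.2 to 99.1.

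Single genes took the same middle position. Among the 829 genes at least 4-fold higher in replicate 2 than in the 24 h mean, the median level in replicates 1, 3 and 4 stood at 48.1%, 45.7% and 46.5% of the way from the 24 h mean (0%) to replicate 2 (100%), in linear CPM. For the 484 genes at least 4-fold lower in replicate 2, the medians were 55.9%, 48.6% and 56.3%. Between 97.3% and 99.8% of these genes lay between the 2 ends in each library. Replicate 2 served as an end point here, so these are descriptions of the libraries and carry no test. No 2 libraries of a TLR2 group agreed within counting noise, which does not tell separate cultures from repeated preparations. Over genes, the chi-square per degree of freedom was 4.58 to 90.1 among the 24 h pairs, 11.9 to 21.6 among 72 h replicates 1, 3 and 4, and 140 to 158 between replicate 2 and those. Whether the middle position came from the cultures, the time of harvest or the handling of RNA was not tested.

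The cells carried CD8 T cell transcripts at both times. Cd8a, the CD8 alpha chain, stood at 794, 721, 794 and 796 CPM in 24 h replicates 1 to 4 and at 718, 598, 718 and 564 CPM in the 72 h replicates. Its groups did not overlap, yet the difference missed the threshold (log2 fold change -0.26 ± 0.14 SE, adjusted p = 0.152, edgeR quasi-likelihood F test with Benjamini-Hochberg adjustment, as for all genes below). Cd4, which helper T cells carry, was at 0.292 to 1.38 CPM in all 8 libraries. Tlr2 itself was low, at 1.59 to 2.64 CPM at 24 h and 2.19 to 3.25 CPM at 72 h, with overlapping groups (log2 fold change 0.24 ± 0.39, adjusted p = 0.622).

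Across all genes, 5681 of 14560 tested (39.0%) differed between the times: 3154 (21.7%) rose and 2527 (17.4%) fell. Among the called genes, the rises were larger than the falls. The median of the genes that rose was 1.43 on the log2 scale (quartiles 0.89 and 2.42), while the median of those that fell was -0.74 (-0.94 and -0.57). At least 4-fold changes were seen in 1044 rises and 47 falls. Of the 2248 genes with a mean above 100 CPM at 24 h, 7.83% rose and 44.7% fell. These genes were picked by their 24 h level, 1 side of the comparison, and that choice can itself tilt the split toward falls. Shares for genes low at 24 h are not given, since many could pass the count filter only through libraries where they were higher. The contrast in size above includes those genes, so it can come in part from the filter. Long non-coding genes rose far more often than they fell (275 against 32 of 983 tested), and protein-coding genes were closer to even (2708 against 2370 of 12087). The 2 classes were not matched for level. Members low at 24 h could often pass the count filter only through libraries where they were higher. That can itself tilt a class of low genes toward rises, so no result about the classes is drawn. At an unadjusted p under 0.05 there were 7353 genes (50.5%). Groups did not overlap for 3938 higher genes (27.0%) and 3501 lower genes (24.0%).

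The counts depended on scaling and on single libraries. The median over all genes was -0.01 with TMM scaling and 0.1 with library-size scaling alone, a shift of the zero by about that amount. TMM made 55.5% of the calls higher, and library-size scaling 68.6% (3530 higher, 1614 lower). Of the 5681 calls, 4975 (87.6%) ran in the order 24 h libraries, then replicates 1, 3 and 4, then replicate 2. Without replicates 1, 3 and 4 there were 5531 calls (2895 higher, 18.2% of 15936 tested, and 2636 lower, 16.5%), of which 4517 were also among the first 5681. Without 72 h replicate 2 there were 1371 of 14746 tested (1213 higher, 158 lower). The list counts given below for that fit stand beside this smaller number of calls over all genes, not beside the 5681. Leaving out 24 h replicate 1 gave 3429 and leaving out 24 h replicate 4 gave 3370.

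Among genes with at least 5 CPM in a group and no overlap, the largest rises were of genes nearly silent in the TLR2 24 h libraries. Some of them were not silent in all 24 h libraries of the other cultures. Cyp2s1, a cytochrome P450, had 0 counts in all 4 of the 24 h libraries and 4.13, 10.4, 4.68 and 4.94 CPM at 72 h. Against a floor of 3 counts over the 24 h group (0.0364 CPM) it was at least 167-fold higher. With OVA at 24 h Cyp2s1 ranged from 0.0454 to 8.75 CPM, and with TLR7 at 24 h from 0.0439 to 5.87 CPM. Vldlr, a lipoprotein receptor gene (chromosome 19, 27216484 to 27254231, plus strand, build GRCm38), was at 0.167, 0.22, 0.0814 and 0.0895 CPM at 24 h and 24, 55.4, 24 and 24.2 CPM at 72 h. Replicate 2 was again the highest, and the other 72 h libraries lay within a narrow band far above 24 h (log2 fold change 7.73 ± 1.58, adjusted p = 0.00778). With OVA and TLR7 at 24 h Vldlr ranged from 0 to 27.4 CPM and from 0.264 to 30.8 CPM.

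Several of these rises were of genes best known from other tissues. Neb (chromosome 2, 52136647 to 52378474, minus strand), which encodes the muscle filament protein nebulin, was at 1.17, 2.2, 1.1 and 1.25 CPM at 24 h and at 132, 311, 125 and 124 CPM at 72 h, a log2 fold change of 6.90 ± 1.40 (adjusted p = 0.00778). Sv2c, which encodes a synaptic vesicle protein, went from 0.326 to 0.704 CPM to 37.7 to 115 CPM (log2 fold change 7 ± 1.46). Ermn, the gene of the myelin-associated protein ermin, rose by 6.52 ± 1.89 on the log2 scale, and Itga7, an integrin alpha chain found on muscle, by 6.07 ± 1.41. In each of these genes, all 4 TLR2 libraries at 72 h lay above all 4 at 24 h. The 24 h libraries of the other cultures spread more widely. Neb ranged there from 1.14 to 154 CPM with OVA and from 1.76 to 135 CPM with TLR7. Sv2c ranged from 0.0884 to 43.6 CPM and from 0.395 to 39.4 CPM.

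Metabolic and chaperone genes made up the rest of the 12 largest rises. Aldoc (chromosome 11, 78322968 to 78327781, plus strand), an aldolase of glycolysis, was at 0.626, 0.396, 0.896 and 0.805 CPM at 24 h and 63.9, 123, 69.9 and 60.9 CPM at 72 h (log2 fold change 6.87 ± 1.56, adjusted p = 0.00795). Selenbp1, a selenium-binding protein gene, rose by 6.19 ± 1.40, and Soat2, which encodes an enzyme that esterifies cholesterol, by 5.93 ± 1.17. Hspa1a and Hspa1b, the inducible Hsp70 chaperones, rose by 7.27 ± 2.26 and 5.94 ± 1.80. These 2 genes are near-identical copies, so how their reads were split is uncertain, and without 72 h replicate 2 both missed the threshold (adjusted p = 0.0546 and 0.0522).

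The 12 largest falls were smaller, and fewer were safe against the loss of a library. Cd86 (chromosome 16, 36603869 to 36666081, minus strand), the ligand by which antigen-presenting cells engage CD28 and CTLA-4, was at 9.44, 19.8, 9.24 and 10.3 CPM at 24 h and 3.43, 0.536, 5.03 and 2.12 CPM at 72 h (log2 fold change -2.14 ± 0.61, adjusted p = 0.015). The groups did not overlap, 24 h replicate 2 was the highest library and 72 h replicate 2 the lowest, and without that 72 h library the adjusted p was 0.0568. Spib, a transcription factor gene of B cells and plasmacytoid dendritic cells, fell from 3.74 to 6.72 CPM to 0.0383 to 3.31 CPM (log2 fold change -1.96 ± 0.77, adjusted p = 0.0474). Its call was lost in every fit that left out 1 TLR2 library except 72 h replicate 1 (adjusted p 0.0593 to 0.118). Cfb, complement factor B, fell by 1.94 on the log2 scale and missed the threshold in each such fit except without 72 h replicate 4 (0.05 to 0.116).

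Genes of DNA replication and repair stood among the falls that lasted. Ccne2 (chromosome 4, 11191351 to 11204779, plus strand), which encodes cyclin E2 of the G1/S transition, was at 47.8, 95.7, 43 and 41.1 CPM at 24 h and 15.4, 7.08, 24.3 and 9.03 CPM at 72 h (log2 fold change -2.03 ± 0.51, adjusted p = 0.00934). Fancb, of the Fanconi anaemia repair pathway, fell from 23.2 to 38.7 CPM to 4.36 to 13.1 CPM (-1.68 ± 0.40, adjusted p = 0.0085). Rrm2, described with the replication genes, was another. The calls of these 3 genes were kept in all 19 alternatives.

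The remaining falls were of mixed function. Hoxb2, a homeobox gene, rested on 24 h replicate 2, at 15.3 CPM against 1.92 to 2.16 in the other 24 h libraries, and without it the log2 fold change was -0.59 with an adjusted p of 0.456; it was also lost without 72 h replicates 1, 2 or 3 (0.0569 to 0.104). St3gal5, a sialyltransferase gene, fell by 1.90 and was lost without 24 h replicate 1 (0.0647) or 72 h replicate 2 (0.0928). Neto2 fell by 1.71 and was lost without 24 h replicate 2 (0.0651) or 72 h replicate 2 (0.0923). Ldlrad3 fell by 1.77 and was lost without 24 h replicates 1, 2 or 4 or 72 h replicates 1 or 2 (0.0573 to 0.0986). Amd2, which has a near-identical copy, and Chd3os, an antisense gene whose reads may come from its partner, each fell by 1.79, and without 72 h replicate 2 their adjusted p were 0.0617 and 0.0558.

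Genes that answer low oxygen rose as a group. Of 24 tested, 20 rose and 0 fell (median log2 fold change 1.41), beside 21.7% rising and 17.4% falling over all genes tested with a median of -0.01. The number that rose was 20 (median 2.02) without 72 h replicates 1, 3 and 4, and without 72 h replicate 2, 10 rose. In 10 of the 17 risen genes that have a RefSeq promoter window of 250 bases before the start (58.8%), the letters ACGTG, the core that HIF-1 binds, were found on either strand, against 4477 of all 27025 windows (16.6%) and 10 of the 20 windows of all members, risen or not. The 2 windows below belong to risen genes whose values follow, and the capitals mark the match, which begins 187 bases before the start site in Ddit4 (chr10:59951771-59952020, minus strand, GRCm38.p6) and 78 bases before it in P4ha2 (chr11:54100674-54100923, plus strand). A match describes the letters only.
Ddit4: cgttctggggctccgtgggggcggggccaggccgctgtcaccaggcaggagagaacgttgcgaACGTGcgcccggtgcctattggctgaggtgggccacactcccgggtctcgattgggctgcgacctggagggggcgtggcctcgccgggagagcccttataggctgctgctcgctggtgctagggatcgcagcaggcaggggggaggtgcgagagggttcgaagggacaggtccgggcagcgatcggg
P4ha2: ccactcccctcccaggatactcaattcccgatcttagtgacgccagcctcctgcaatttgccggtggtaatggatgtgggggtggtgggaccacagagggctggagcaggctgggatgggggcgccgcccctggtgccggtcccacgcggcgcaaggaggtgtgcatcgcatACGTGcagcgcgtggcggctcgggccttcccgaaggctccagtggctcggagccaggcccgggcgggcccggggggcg

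The first gene, Ddit4, encodes REDD1, an inhibitor of mTORC1. It stood at 7.43, 7.75, 9.45 and 8.23 CPM at 24 h and at 80.7, 166, 80.6 and 72.7 CPM at 72 h. All 72 h libraries were far above all 24 h libraries, with replicate 2 about as far above the others as they were above 24 h (log2 fold change 3.6 ± 0.73, adjusted p = 0.00778). P4ha2, a collagen prolyl hydroxylase, was at 1.46, 1.41, 2.48 and 1.43 CPM at 24 h and 45.7, 104, 41.9 and 41.5 CPM at 72 h (5.08 ± 1.27, adjusted p = 0.00912). Mxi1, whose product opposes Myc, went from 9.22 to 12.7 CPM to 82.8 to 187 CPM (3.42 ± 0.80). Other members that rose were Stc2 (5.76), Car9, a carbonic anhydrase (3.9), Ndrg1 (3.08), the mitophagy gene Bnip3 (3.06) and Vegfa (2.8), all in log2 fold change. The oxygen sensors Egln3 and Egln1 rose by 1.37 and 1.17.

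Glycolysis genes followed. Of 19 tested, 12 rose (63.2%, beside 21.7% of all genes) and 0 fell, with a median of 0.75. Without 72 h replicates 1, 3 and 4, 9 rose (median 1.04), without 24 h replicates 1, 2 or 4 it was 6, 5 and 6, and without 72 h replicate 2 it was 2, Aldoc and Slc2a3. Slc2a3, the glucose transporter GLUT3 (chromosome 6, 122727809 to 122801640, minus strand), was at 39.8, 44.4, 38.9 and 38.7 CPM at 24 h and at 375, 826, 352 and 360 CPM at 72 h. The 24 h libraries were nearly level, and every 72 h library lay well above them (log2 fold change 3.56 ± 0.82, adjusted p = 0.00798). Slc16a3, the lactate exporter MCT4, went from 13.5 to 26.6 CPM to 64 to 138 CPM (2.34 ± 0.79, adjusted p = 0.0283), a call lost without 24 h replicates 1, 2 or 4 or 72 h replicate 2 (0.0634 to 0.0976). The abundant enzymes moved less: Aldoa rose by 1.35, Eno1 by 0.84 and Gapdh by 0.75. ACGTG was found in the windows of 4 of 11 risen glycolysis genes (36.4%) and 8 of the 18 windows of all members, so risen genes did not hold it more often than the others (16.6% of all windows).

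**Figure D2:**
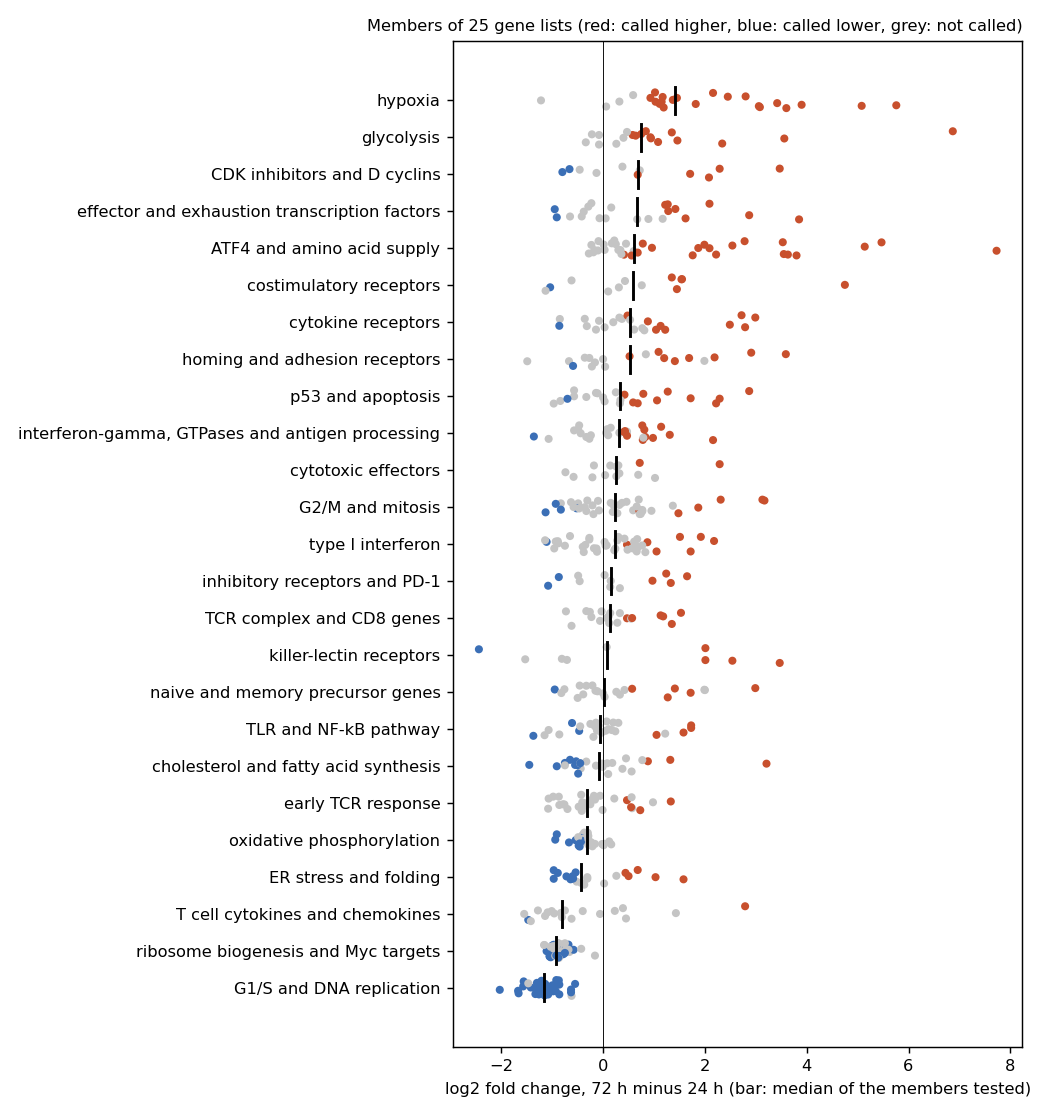
Log2 fold change from 24 h to 72 h with the TLR2 agonist (x axis) of each tested member of 25 gene lists (rows); red members rose, blue fell, grey missed the threshold, and the bar is the list's median. The hypoxia list (median 1.41) lies to the right and the G1/S list (median -1.16) to the left.

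Many genes under ATF4 rose as well, among them enzymes that make amino acids and transporters that import them. Of 35 tested, 19 rose (54.3%, beside 21.7% of all genes) and 0 fell, with a median of 0.60. There were 17 rises (median 0.88) without 72 h replicates 1, 3 and 4, and without 72 h replicate 2, there were 15. The C/EBP-ATF response element, searched as TGATGNAA on both strands, was present in the windows of 4 of the 16 risen genes that have one (25%; Asns, Chac1, Nupr1 and Pycr1), in 7 of the 29 windows of all members, and in 954 of all windows (3.53%). The windows of Asns (chr6:7693210-7693459, minus strand, match 23 bases before the start) and Nupr1 (chr7:126625471-126625720, minus strand, match 110 bases before it and on the reverse strand) are shown because both genes rose strongly.
Asns: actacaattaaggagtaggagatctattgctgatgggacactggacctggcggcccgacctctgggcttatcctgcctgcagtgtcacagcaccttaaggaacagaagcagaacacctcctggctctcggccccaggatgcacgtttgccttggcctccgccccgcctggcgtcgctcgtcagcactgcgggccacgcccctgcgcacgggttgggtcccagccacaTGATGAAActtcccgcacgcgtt
Nupr1: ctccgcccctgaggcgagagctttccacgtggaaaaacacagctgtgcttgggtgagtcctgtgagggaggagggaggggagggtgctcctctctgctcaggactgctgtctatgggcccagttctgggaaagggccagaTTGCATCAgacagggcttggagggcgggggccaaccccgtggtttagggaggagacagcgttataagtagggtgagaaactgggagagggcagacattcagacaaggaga

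The enzyme Asns makes asparagine. It stood at 30.3, 34.9, 28.4 and 28.5 CPM at 24 h and 144, 275, 132 and 159 CPM at 72 h (log2 fold change 2.54 ± 0.56, adjusted p = 0.00784). Nupr1, a stress-induced chromatin protein gene, was at 0.167, 0.352, 0.285 and 0.358 CPM at 24 h and 12.5, 20.2, 6.63 and 11.7 CPM at 72 h (5.47 ± 1.08, adjusted p = 0.00778). Trib3 (chromosome 2, 152337422 to 152344032, minus strand), a pseudokinase that feeds back on ATF4, went from 2.09, 1.63, 2.08 and 1.79 CPM to 58.8, 109, 54.6 and 46.4 CPM (5.14 ± 1.08, adjusted p = 0.00778). The groups did not overlap in any of these 3 genes. Vldlr, the leading gene above, is also a member. Ddit3, which encodes CHOP, rose by 3.8, the glutathione-degrading Chac1 by 3.63 and Sesn2, an mTORC1 regulator, by 2.09. Atf4 itself rose by 0.41, and the amino acid exchanger pair Slc7a5 and Slc3a2 by 0.56 and 0.68.

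Chaperones of the endoplasmic reticulum went the other way in part. Of 21 genes of ER stress and folding, 5 rose (23.8%) and 9 fell (42.9%), beside 21.7% and 17.4% of all genes. The list median was -0.43. With replicate 2 as the only 72 h library, 4 rose and 5 fell, and without 72 h replicate 2, 1 rose and 0 fell. In the other fits that each left out 1 TLR2 library, 3 rose without 24 h replicates 1 or 3 or 72 h replicate 4, and 4 fell without 24 h replicates 1 or 4 or 72 h replicates 1 or 4, with 5 falls without 24 h replicate 2. Herpud1, of the degradation branch, went from 34.4 to 43.5 CPM to 89.4 to 175 CPM (1.58 ± 0.38, adjusted p = 0.00831), and Xbp1, the transcription factor of the unfolded protein response, from 73.3 to 88.6 to 129 to 238 CPM (1.03 ± 0.27, adjusted p = 0.0101). The falls were of folding factors: Creld2 fell from 51.1 to 70.1 CPM to 19.2 to 41.6 CPM (-0.97 ± 0.27, adjusted p = 0.0131), with Sdf2l1 at -0.97, Dnajb11 at -0.89 and calreticulin (Calr) at -0.6. Without 72 h replicate 2 the adjusted p of Xbp1 and Creld2 were 0.0598 and 0.0627.

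Replication genes fell almost without exception. Of 40 genes of G1/S and DNA replication, 38 fell (95%, beside 17.4% of all genes) and 0 rose. The median was -1.16, and all 40 had a negative log2 fold change. All 40 fell (median -2.28) without 72 h replicates 1, 3 and 4, and without 72 h replicate 2, 15 fell. The E2F site, searched as TTTCCCGC or TTTGGCGC on both strands, was in the windows of 4 of 31 fallen genes (12.9%; Cdc6, Mcm5, Mcm6 and Mcm7) in 4 of the 33 windows of all members, and in 366 of all windows (1.35%). The Cdc6 window (chr11:98907901-98908150, plus strand, match 138 bases before the start) and the Mcm5 window (chr8:75109259-75109508, plus strand, match 149 bases before it) are shown for an origin-loading factor and for a subunit of the helicase it loads.
Cdc6: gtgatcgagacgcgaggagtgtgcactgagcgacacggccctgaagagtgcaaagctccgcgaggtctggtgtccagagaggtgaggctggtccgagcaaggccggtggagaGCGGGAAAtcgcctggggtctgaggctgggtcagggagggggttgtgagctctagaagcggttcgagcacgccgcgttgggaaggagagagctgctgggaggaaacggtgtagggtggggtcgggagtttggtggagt
Mcm5: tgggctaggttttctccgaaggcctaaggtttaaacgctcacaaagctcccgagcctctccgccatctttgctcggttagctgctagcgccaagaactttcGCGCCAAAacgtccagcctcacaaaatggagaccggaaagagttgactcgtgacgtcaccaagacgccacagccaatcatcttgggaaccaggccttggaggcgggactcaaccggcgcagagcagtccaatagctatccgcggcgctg

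At 24 h Cdc6 was at 187, 219, 191 and 201 CPM, and at 72 h at 83.2, 15.7, 110 and 42.7 CPM (log2 fold change -1.66 ± 0.52, adjusted p = 0.0205). Replicate 2 was lowest at 72 h, replicate 4 next, and without replicate 2 the adjusted p was 0.0773. Mcm5 was at 707, 507, 722 and 632 CPM at 24 h and 397, 105, 394 and 277 CPM at 72 h (-1.13 ± 0.36, adjusted p = 0.0218), and its call was lost without 24 h replicates 1 or 4 or 72 h replicate 2 (0.0507 to 0.0834). Rrm2 (chromosome 12, 24708241 to 24714146, plus strand), the inducible subunit of ribonucleotide reductase, was at 302, 376, 280 and 240 CPM at 24 h and 106, 60.8, 151 and 58.8 CPM at 72 h (-1.67 ± 0.39, adjusted p = 0.00798). Here replicate 4 was as low as replicate 2, and no single library decided the call. Thymidylate synthase (Tyms) fell by 1.56, the sliding clamp Pcna by 1.22 and E2f1 by 1.26 on the log2 scale.

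Few mitosis genes passed the test. Of 38 tested, 6 rose (15.8%) and 4 fell (10.5%; median 0.24), shares below the 21.7% and 17.4% of all genes. Without the 8 libraries between the times, 17 rose and 3 fell (median 0.59), beside 24.0% and 19.4% of all genes in that fit. With replicate 2 as the only 72 h library, 4 rose and 2 fell, and without 72 h replicate 2, 2 rose and 1 fell. The rises were 2, 3, 3 and 2 without 24 h replicates 1, 2, 3 and 4. Ccnb2, a mitotic cyclin, was at 3.09, 4.31, 3.01 and 2.51 CPM at 24 h and 24.8, 44.3, 21.1 and 27.5 CPM at 72 h (3.17 ± 0.88, adjusted p = 0.0129). Cenpa, the centromeric histone, went from 11.5 to 15 CPM to 69.9 to 178 CPM (3.13 ± 0.83, adjusted p = 0.0113). Ube2c, which works with the anaphase-promoting complex, rose by 2.31 ± 0.76 and lost its call without 24 h replicates 1, 2 or 4 or 72 h replicate 2 (0.0508 to 0.0863).

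The mitosis genes that fell were Smc2, of condensin, from 218 to 365 CPM to 81.9 to 149 CPM (-1.13 ± 0.27, adjusted p = 0.00856), Cdk1 (-0.93 ± 0.26), Mad2l1 (-0.83 ± 0.23) and Kif20b (-0.52). On leaving out 72 h replicate 2, the adjusted p of Cdk1 and Mad2l1 were 0.0609 and 0.0566. Mki67, the proliferation marker, was at 200, 300, 214 and 170 CPM at 24 h and 309, 433, 280 and 306 CPM at 72 h, and the overlapping groups did not differ past the threshold (0.59 ± 0.49, adjusted p = 0.332). Without the 8 libraries between the times Mki67 rose by 1 on the log2 scale (adjusted p = 0.0361).

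Among cell cycle inhibitors and D cyclins with their kinases, rises outnumbered falls (45.5% and 18.2%, beside 21.7% and 17.4% of all genes). Of 11 genes tested, 5 rose and 2 fell (median 0.68), the same counts as without 72 h replicates 1, 3 and 4, and without 72 h replicate 2, 3 rose and 0 fell. Ccng2, cyclin G2, a brake on division, was at 4.93, 7.44, 5.01 and 4.56 CPM at 24 h and 45.2, 110, 39 and 50.2 CPM at 72 h (3.47 ± 0.76, adjusted p = 0.00778). Cdkn1a, which encodes p21, went from 14.9 to 19.2 CPM to 59.3 to 131 CPM (2.29 ± 0.37), and Cdkn1b, which encodes p27, from 10.6 to 16.3 CPM to 37.9 to 87.5 CPM (2.08 ± 0.50). Ccnd2, cyclin D2, fell from 1160 to 1580 CPM to 496 to 876 CPM (-0.80 ± 0.29, adjusted p = 0.0359), and its partner kinase Cdk4 fell by 0.66 ± 0.23 (adjusted p = 0.0334). Both calls were lost in 6 of the 8 fits that left out 1 TLR2 library, kept for Ccnd2 without 24 h replicate 3 or 72 h replicate 4 and for Cdk4 without 24 h replicate 2 or 72 h replicate 3 (lost calls 0.0516 to 0.134).

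Ribosome-making genes had lower fitted levels at 72 h, and fewer than all of them passed the test. Of 40 genes of ribosome biogenesis and Myc targets, 18 fell (45%, beside 17.4% of all genes) and 0 rose. The median was -0.92, and all 40 had a negative log2 fold change. The falls came to 37 (median -2.24) without 72 h replicates 1, 3 and 4, whereas without 72 h replicate 2, 0 fell. The falls were 0, 7, 6 and 0 without 24 h replicates 1, 2, 3 and 4, and 1 without 72 h replicate 1, while the median stayed between -1.02 and -0.65. Gar1, of the particles that modify ribosomal RNA, was at 145, 140, 139 and 134 CPM at 24 h and 75.9, 21.6, 83.8 and 77.7 CPM at 72 h (-1.11 ± 0.41, adjusted p = 0.0394). The 24 h libraries were nearly level, 3 of the 72 h libraries were at a common lower level and replicate 2 was lower still. Nhp2, of the same particles, fell by 1.05 ± 0.37 (adjusted p = 0.0332), and Ddx18, a nucleolar helicase gene, by 1.05 ± 0.36 (adjusted p = 0.0303). Calls were lost without 24 h replicates 1 or 4 or 72 h replicates 1 or 2 in all 3 genes, for Gar1 and Nhp2 also without 24 h replicate 3, and for Gar1 and Ddx18 also without 24 h replicate 2 (0.0529 to 0.133). Myc itself was at 374 to 445 CPM at 24 h and 344 to 512 CPM at 72 h, with no difference past the threshold (adjusted p = 0.981).

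Some respiratory chain genes fell (32.3% of those tested, beside 17.4% of all genes). Of 31 genes of oxidative phosphorylation, 10 fell and 0 rose (median -0.32), with 13 falls without 72 h replicates 1, 3 and 4 (median -0.64) and 0 without 72 h replicate 2. It was 2, 4 and 2 without 24 h replicates 1, 3 and 4, and 3 without 72 h replicate 1. Cycs, cytochrome c, was at 372, 446, 367 and 383 CPM at 24 h and 208, 93.6, 273 and 243 CPM at 72 h (-0.94 ± 0.35, adjusted p = 0.0409). Ndufa4 fell by 0.91 ± 0.31 and Ndufs1, of complex I, by 0.67 ± 0.21. The call for Cycs was kept only without 72 h replicates 3 or 4 (lost elsewhere, 0.0595 to 0.147), that for Ndufa4 was lost without 24 h replicates 1, 3 or 4 or 72 h replicates 1 or 2 (0.0518 to 0.112), and that for Ndufs1 without replicate 2 of either time (0.0573 and 0.0961).

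Lipid synthesis genes moved in both directions (10.7% rose and 32.1% fell, beside 21.7% and 17.4% of all genes). Of 28 genes of cholesterol and fatty acid synthesis, 3 rose and 9 fell; the median was -0.09 with TMM scaling and 0.02 with library-size scaling, so its sign is not settled. With replicate 2 as the only 72 h library, 1 rose and 6 fell, and without 72 h replicate 2, 1 rose and 0 fell. Without 24 h replicates 1, 2 and 4 there was 1 rise each, with 1, 3 and 3 falls, and without 72 h replicate 1 there was also 1 rise. Scd2, a fatty acid desaturase, was at 85.7, 110, 113 and 71.8 CPM at 24 h and 665, 1460, 738 and 657 CPM at 72 h, a rise of 3.21 ± 0.86 (adjusted p = 0.0115). Idi1, of the isoprenoid pathway, fell from 386 to 615 CPM to 77.7 to 241 CPM (-1.45 ± 0.46, adjusted p = 0.0223), Acaca, acetyl-CoA carboxylase, by 0.91 ± 0.31 and Cyp51 by 0.75 ± 0.25. Idi1 lost its call without 24 h replicate 2 (0.055) or 72 h replicate 2 (0.0923), and Acaca and Cyp51 without 24 h replicates 1, 2 or 4 or 72 h replicate 2 (0.0553 to 0.112).

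Inhibitory receptors split. Of 12 tested, 4 rose and 2 fell (median 0.15, and -0.01 without 72 h replicates 1, 3 and 4, with the same counts). Without 24 h replicate 1 or 72 h replicate 2, 2 rose and 0 fell. Ctla4 (chromosome 1, 60887000 to 60915832, plus strand), the receptor that competes with CD28 for its ligands, was at 214, 475, 247 and 326 CPM at 24 h and at 688, 1600, 858 and 831 CPM at 72 h. Its groups did not overlap, although replicate 2 was the highest at both times (1.65 ± 0.51, adjusted p = 0.02; without 24 h replicate 1 0.0548, without 72 h replicate 2 0.0917). Tigit went from 46.2 to 50.9 CPM to 105 to 163 CPM (1.33 ± 0.33) and Lag3 from 133 to 217 CPM to 384 to 571 CPM (1.24 ± 0.31). Pdcd1, which encodes PD-1 (chromosome 1, 94038305 to 94052553, minus strand), was at 93.1, 36.8, 80.3 and 56.1 CPM at 24 h and 104, 67.5, 62.7 and 60 CPM at 72 h, and the overlapping groups gave a log2 fold change of 0.14 ± 0.41 (adjusted p = 0.795). Cd200 fell by 1.08 ± 0.37 and Btla by 0.87 ± 0.33. Cd200 was lost without 24 h replicates 1, 2 or 4 or 72 h replicates 1 or 2 (0.0569 to 0.116), and Btla in every fit that left out 1 TLR2 library except 72 h replicate 4 (0.0606 to 0.159).

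Some costimulatory receptors rose (41.7%, with 8.33% falling, beside 21.7% and 17.4% of all genes). Of 12 costimulatory genes, 5 rose and 1 fell (median 0.59; 4 and 1 without 72 h replicates 1, 3 and 4, 3 and 0 without 24 h replicate 2, and 1 and 0 without 72 h replicate 2). Tnfrsf9, which encodes 4-1BB, was at 398, 391, 408 and 388 CPM at 24 h and 991, 1720, 877 and 1060 CPM at 72 h (1.55 ± 0.38, adjusted p = 0.00889). Tnfrsf8, which encodes CD30, went from 2.09 to 3.92 CPM to 37.3 to 122 CPM (4.75 ± 1.69, adjusted p = 0.0332), and Tnfrsf18, which encodes GITR, from 43.7 to 85.6 CPM to 171 to 271 CPM (1.54 ± 0.46, adjusted p = 0.0178). Tnfrsf8 lost its call without any 1 of the 24 h replicates or without 72 h replicate 2 (0.0635 to 0.0925), and Tnfrsf18 without 72 h replicate 2 (0.0698).

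The killer-lectin receptors recognise stress ligands or non-classical MHC on target cells. Of 9 tested, 4 rose (44.4%) and 1 fell (11.1%), beside 21.7% and 17.4% of all genes. The median was 0.07, -0.09 to 0.23 without single libraries and 0.44 without 72 h replicates 1, 3 and 4. Without 72 h replicate 2, 4 rose. Klrk1, which encodes NKG2D (chromosome 6, 129610323 to 129623864, minus strand), was at 12.9, 18.8, 14.9 and 11.9 CPM at 24 h and 144, 249, 114 and 142 CPM at 72 h (3.47 ± 0.77, adjusted p = 0.00784). Klrd1, which encodes CD94, rose from 10.4 to 16 CPM to 50 to 143 CPM (2.54 ± 0.58), and Klrc1, its NKG2A partner, from 4.43 to 10.9 CPM to 16.9 to 39 CPM (2.01 ± 0.48). Reads of Klrc1 and its neighbour Klrc2, which resemble each other, could be split between them.

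Few genes of the killing machinery passed the test. Of 14 tested, 2 rose (14.3%, below the 21.7% of all genes) and 0 fell (median 0.26), 1 rose without 72 h replicates 1, 3 and 4, and 1 without replicate 2 of either time. Gzmb, granzyme B, was at 1140, 2450, 1370 and 1720 CPM at 24 h and 1270, 2330, 1930 and 2500 CPM at 72 h, with overlapping groups (0.26 ± 0.42, adjusted p = 0.627). Prf1, perforin, was at 65.3 to 84.5 CPM and 81.6 to 117 CPM (0.30 ± 0.30, adjusted p = 0.428). Ctsw, a cathepsin of cytotoxic cells, rose from 7.53 to 14.8 CPM to 44.9 to 81.9 CPM (2.29 ± 0.51, adjusted p = 0.00785), and Nkg7, a granule protein gene, by 0.72 ± 0.23 (adjusted p = 0.022). Nkg7 was lost without 24 h replicates 2 or 4 or 72 h replicate 2 (0.05 to 0.0908).

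Cytokine transcripts separated the 72 h libraries from one another. Of 19 tested, 1 rose and 1 fell (5.26% each, below the shares over all genes; median -0.81). Without 72 h replicates 1, 3 and 4, 1 rose and 8 fell (median -2.82), and without 72 h replicate 2, 0 rose and 0 fell. Il2, the growth factor of T cells, was at 96.3, 77.1, 46.5 and 86.9 CPM at 24 h and 17.2, 0.23, 45.7 and 112 CPM at 72 h, so replicate 2 had almost none while replicate 4 exceeded every 24 h library (-0.81 ± 1.18, adjusted p = 0.59). Without the 3 middle libraries its log2 fold change was -8.37 (adjusted p = 0.0397). The chemokine genes Xcl1 and Ccl4, singled out after their values were seen, showed the same split: Xcl1 was at 328 to 570 CPM at 24 h and 397, 5.05, 272 and 299 CPM at 72 h (adjusted p = 0.456), and Ccl4 was at 230 to 448 CPM and then 177, 3.14, 177 and 263 CPM (adjusted p = 0.416).

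Interferon-gamma was the cytokine that fell. Ifng was at 298, 626, 287 and 394 CPM at 24 h and 56.6, 57.6, 248 and 217 CPM at 72 h (-1.47 ± 0.57, adjusted p = 0.0447). Replicates 1 and 2 were low at 72 h, replicates 3 and 4 just under the lowest 24 h library, and the call was kept only without 72 h replicates 3 or 4 (lost elsewhere, 0.052 to 0.145). Ltb, lymphotoxin beta, rose from 2.51 to 9.65 CPM to 29.5 to 60.3 CPM (2.79 ± 0.78, adjusted p = 0.014; without 72 h replicate 2, 0.0504). Tnf was at 15.2 to 26.5 CPM and 14.3 to 28.5 CPM, and Il21 at 14.5 to 84.4 CPM and 2.66 to 56.9 CPM, neither past the threshold (adjusted p = 0.875 and 0.54).

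Among cytokine receptors, rises outnumbered falls (39.1% and 4.35%, beside 21.7% and 17.4% of all genes). Of 23 tested, 9 rose and 1 fell (median 0.53; 8 and 1 without 72 h replicates 1, 3 and 4, and 4 and 0 without 72 h replicate 2). Il7r, the receptor for the survival cytokine IL-7, was at 15.7, 46.7, 16.4 and 21.5 CPM at 24 h and 143, 356, 143 and 156 CPM at 72 h (2.99 ± 0.77, adjusted p = 0.01). Il18r1, a receptor chain for IL-18, went from 2.38 to 4.97 CPM to 16.5 to 36.7 CPM (2.79 ± 0.59), and Ifngr1, of the interferon-gamma receptor, from 30.5 to 37.7 CPM to 175 to 396 CPM (2.72 ± 0.64). Il12rb2 rose by 2.49 and Il2rb by 1.04, while Il2ra, the high-affinity IL-2 receptor chain, was at 884 to 1430 CPM and 1050 to 1670 CPM (0.32 ± 0.28, adjusted p = 0.356). Tgfbr1 fell by 0.86 on the log2 scale.

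Some homing and adhesion receptors rose (42.1%, with 5.26% falling, beside 21.7% and 17.4% of all genes). Of 19 tested, 8 rose and 1 fell (median 0.52; 7 and 0 without 72 h replicates 1, 3 and 4, 5 and 0 without 24 h replicate 4, and 4 and 0 without 72 h replicate 2). Itgb7, of the gut-homing integrin, was at 15.8, 10.1, 16.1 and 12.4 CPM at 24 h and 138, 245, 152 and 122 CPM at 72 h (3.59 ± 0.86, adjusted p = 0.0085). Cxcr4 rose from 6 to 13.9 CPM to 46.8 to 98.3 CPM (2.91 ± 0.69) and Selplg, the selectin ligand PSGL-1, by 2.19 ± 0.60. Ccr7, which guides T cells to lymph nodes, was at 665 to 849 CPM and 628 to 917 CPM (adjusted p = 0.992). Itgb1 fell by 0.59 ± 0.22 and kept its call only without 24 h replicate 3 or 72 h replicate 4 (lost elsewhere, 0.0518 to 0.14).

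Transcription factors of effector and exhausted cells rose in 8 of 21 cases (38.1%) and fell in 2 (9.52%), beside 21.7% and 17.4% of all genes. Their median was 0.67. The counts were the same without 72 h replicates 1, 3 and 4 (median 1.16). Without 72 h replicate 2, 2 rose and 0 fell, and without 24 h replicate 1, 5 rose and 1 fell. Prdm1, which encodes Blimp-1, was at 3.59, 7.44, 2.93 and 5.73 CPM at 24 h and 22.7, 64.2, 30.5 and 26 CPM at 72 h (2.87 ± 0.70, adjusted p = 0.00866). Batf3, an AP-1 family partner, rose from 1.71 to 2.52 CPM to 24.2 to 43.5 CPM (3.85 ± 1.18, adjusted p = 0.0195), and Runx2 from 7.33 to 22.2 CPM to 40.1 to 97 CPM (2.09 ± 0.56). Eomes and Irf8 fell by 0.95 ± 0.35 and 0.91 ± 0.25, and Tbx21, which encodes T-bet, was at 67.2 to 76.1 CPM and 29.7 to 69.6 CPM (-0.65 ± 0.30, adjusted p = 0.087). On leaving out 72 h replicate 2, the adjusted p of Batf3, Runx2 and Irf8 were 0.0609, 0.0549 and 0.0548, and Eomes kept its call only without 24 h replicate 4 or 72 h replicates 1 or 4 (lost elsewhere, 0.0625 to 0.128).

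Early response genes of the T cell receptor passed the test in few cases. Genes of naive or memory cells rose about as often as all genes (22.7% against 21.7%) and fell less often (4.55% against 17.4%). Of 28 early response genes, 4 rose (14.3%, against 21.7% of all genes) and 0 fell (median -0.31; 3 and 6 without 72 h replicates 1, 3 and 4, and 1 and 0 without 72 h replicate 2). There were 2 rises without 24 h replicates 1, 3 or 4. Jun rose from 15.9 to 18.3 CPM to 36.7 to 56.9 CPM (1.33 ± 0.35, adjusted p = 0.0108), while Cd69, an early activation receptor, was at 289 to 438 CPM and 238 to 402 CPM (adjusted p = 0.601). Of 22 naive and memory genes, 5 rose and 1 fell (median 0.02, and -0.07 to 0.13 without single libraries; 5 and 3, and 3 and 0, in the same 2 fits). Bcl2, the survival factor, rose from 53.2 to 83.5 CPM to 157 to 340 CPM (1.72 ± 0.43, adjusted p = 0.00932), and Tcf7, which encodes TCF-1, was at 173 to 195 CPM and 159 to 184 CPM (adjusted p = 0.85). Of 20 genes of the receptor complex and CD8, 6 rose (30%, against 21.7% of all genes) and 0 fell. The median was 0.13 (0.11 without 72 h replicates 1, 3 and 4). There were 2 rises and 0 falls without 72 h replicate 2, and 3 rises without 24 h replicate 2. Cd3g was at 135 to 168 CPM at 24 h and 375 to 619 CPM at 72 h (1.53 ± 0.38), and Cd3d at 148 to 178 and 329 to 494 CPM (1.18 ± 0.29).

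Few genes of TLR signalling itself passed the test. Of 26 genes of the TLR and NF-kB pathway, 4 rose (15.4%) and 3 fell (11.5%), shares below those over all genes (21.7% and 17.4%). The median was -0.06 with TMM scaling and 0.04 with library-size scaling, and 4 rose and 6 fell without 72 h replicates 1, 3 and 4, against 2 and 0 without 72 h replicate 2. There was 1 fall without 24 h replicates 1 or 4. Tlr6, the partner of TLR2 for some lipopeptides, was at 1.25, 2.16, 1.22 and 1.52 CPM at 24 h and 3.35, 8.84, 3.9 and 4.31 CPM at 72 h (1.73 ± 0.42, adjusted p = 0.00857). The inhibitors of NF-kB Tnfaip3, which encodes A20, and Tnip1, its partner, rose by 1.73 ± 0.48 and 1.58 ± 0.39, from 108 to 138 CPM to 316 to 599 CPM and from 27.1 to 43.7 CPM to 98.5 to 137 CPM. The adaptor gene Myd88 fell from 86.7 to 99.9 CPM to 42.7 to 72.6 CPM (-0.61 ± 0.19, adjusted p = 0.0202), and Nfkb1 by 0.47 ± 0.15 (adjusted p = 0.0215). Tlr7, found on B cells and dendritic cells, fell from 6.71 to 13.6 CPM to 0.497 to 6.62 CPM (-1.37 ± 0.52, adjusted p = 0.0415). Calls were lost without 72 h replicate 2 for Tnfaip3 (0.0577), Myd88 (0.092), Nfkb1 (0.0974) and Tlr7 (0.104), for Myd88 also without 24 h replicate 4 (0.0582), for Nfkb1 without 24 h replicates 1 or 4 (0.0743 and 0.0607) and for Tlr7 without 24 h replicates 1, 2 or 3 or 72 h replicates 1 or 3 (0.0502 to 0.0818).

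Few type I interferon genes passed the test. Of 40, 7 rose (17.5%, against 21.7% of all genes) and 1 fell (2.5%, against 17.4%; median 0.23; 6 and 4 with a median of 0.01 without 72 h replicates 1, 3 and 4, 2 and 1 without 72 h replicate 2, and 3 falls without 72 h replicate 4). The cytosolic RNA sensors were among the rises: Ddx58, which encodes RIG-I, was at 7.31, 6.65, 8.1 and 3.49 CPM at 24 h and 21.7, 38.1, 18 and 19.8 CPM at 72 h (1.92 ± 0.42, adjusted p = 0.00778), with Oas3 at 2.18 ± 0.62 and Dhx58 at 1.72 ± 0.46. Ifit2 fell from 15 to 20.2 CPM to 4.21 to 9.89 CPM (-1.11 ± 0.27, adjusted p = 0.00831). Of 28 genes of the interferon-gamma response and antigen processing, 11 rose (39.3%) and 1 fell (3.57%), beside 21.7% and 17.4% of all genes. The median was 0.32 (0.43 without 72 h replicates 1, 3 and 4). Without 72 h replicate 2, 4 rose and 0 fell. There were 6 rises without 24 h replicate 4, and 7 rises and 4 falls without 72 h replicate 4. Gbp8, of a GTPase family with similar copies, rose from 4.47 to 9.49 CPM to 21.1 to 50.9 CPM (2.16 ± 0.43), the peptide transporter Tap2 by 1.31 ± 0.36 and the immunoproteasome subunit Psmb9 by 1.14 ± 0.30. Oas3, Dhx58 and Tap2 missed the threshold without 72 h replicate 2 (adjusted p = 0.0507, 0.0503 and 0.0507).

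Genes under p53 and of apoptosis rose in 10 of 23 cases (43.5%) and fell in 1 (4.35%), beside 21.7% and 17.4% of all genes. The median was 0.33 (0.61 without 72 h replicates 1, 3 and 4), and without 72 h replicate 2, 7 rose and 0 fell. Bbc3, which encodes the death-promoting PUMA, was at 1.46, 0.66, 1.18 and 1.97 CPM at 24 h and 9.19, 13.8, 8.49 and 6.29 CPM at 72 h (2.87 ± 0.71, adjusted p = 0.00886). Trp53inp1 went from 17.4 to 31.5 CPM to 72.6 to 188 CPM (2.22 ± 0.45). The list holds both killers and protectors, since Bcl2 is a member, and Mdm2, the p53 inhibitor, rose by 0.42.

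The summed levels of 7 of 11 lists of markers of other cells differed between the times. In each of the 7 the groups did not overlap, which was also so for 27.0% of all genes tested on the higher side and 24.0% on the lower. The count of lists was not tested against those shares. In bulk RNA, fewer cells of a type and less RNA per cell cannot be told apart. The summed CPM of 20 B cell markers was 741 to 847 at 24 h and 379 to 721 at 72 h, lowest in replicate 2 (2-sided exact permutation test, p = 0.0286, the smallest that 70 arrangements give; 0.0449 adjusted over 11 marker lists). The B cell genes Ms4a1 and Cd79a, singled out after their values were seen, were nearly absent from 72 h replicate 2. The sum there was still 379 CPM, nearly all of it from other members of the list, so these 2 genes do not stand for the sum. Ms4a1, which encodes CD20, was at 19.1, 28.6, 26.9 and 19.1 CPM at 24 h and 12.6, 0.115, 10.2 and 2.85 CPM at 72 h (adjusted p = 0.0873). Cd79a was at 7.22 to 21.9 CPM and then 14.4, 0.306, 7.15 and 3.18 CPM (adjusted p = 0.247). Of the 20 markers, 2 rose and 2 fell (10% each, below the 21.7% and 17.4% of all genes). Their median was -1.22, and -5.8 without 72 h replicates 1, 3 and 4. There were 6 falls without 72 h replicate 1, and without 72 h replicate 2, 0 fell. Spib, itself 1 of the 20 markers, and Cd86, Tlr7 and Cxcl10, all of which antigen-presenting cells express, also fell. The dendritic cell sum overlapped between the times (828 to 1190 CPM, then 739 to 1020 CPM). The macrophage sum rose (202 to 222 CPM, then 264 to 372 CPM), although most of its tested members went the other way. The part of such cells in the falls of these 4 genes was not tested.

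A single gene made up most of the mast cell sum and of the erythroid sum. The mast cell sum rose from 7.94 to 16.4 CPM to 34.8 to 69.4 CPM. Kit made up most of it (3.5 to 7 CPM, then 30.5 to 65.4 CPM, log2 fold change 2.97 ± 0.71, adjusted p = 0.00829). The protease genes Mcpt4 and Tpsab1 were at 0 in all 8 libraries. The other members, further proteases among them, had counts in some. The erythroid sum fell from 1170 to 2070 CPM to 306 to 822 CPM, most of it Tfrc, the transferrin receptor of dividing cells (1160 to 2050, then 303 to 817 CPM; adjusted p = 0.0538). Kit and Tfrc were named after their values were seen. The sums of CD4 and regulatory T cell markers (35.1 to 49.8, then 57.3 to 78.6 CPM), macrophages (202 to 222, then 264 to 372), platelets (6.6 to 7.35, then 29.1 to 66.5) and stromal cells (13.1 to 15.2, then 23 to 32.8) rose, each with the same exact p of 0.0286 and adjusted p of 0.0449, as for mast and erythroid cells. Most tested members went against the sum for CD4 and regulatory T cells (3 of 8 with a positive log2 fold change, median -0.58). The same held for macrophages (3 of 12, median -0.83). Of the platelet markers 6 of 6 were positive, and of the stromal markers 3 of 5. The part of such cells in the results above was not tested. Sums for plasma cells, dendritic cells, neutrophils and NK cells did not differ past the threshold (exact p = 0.143, 0.457, 0.371 and 0.0571).

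Whether the course over time differed with the TLR2 agonist was tested against the other cultures. Of 14560 genes, 0 had a time effect that differed between TLR2 and OVA past the threshold (edgeR; 919 at an unadjusted p under 0.05, and 2 past the threshold with DESeq2). Against TLR7, 120 genes (0.824%) differed, 56 (0.385%) more positive with TLR2 and 64 (0.440%) more negative. On their own, 2709 genes (18.6%) differed between the times with OVA, 1190 higher (8.17%) and 1519 lower (10.4%), and 6288 (43.2%) with TLR7, 2767 higher (19.0%) and 3521 lower (24.2%). Of the OVA libraries, 24 h replicates 1 and 3 and 72 h replicate 4 lie between the times, and of the TLR7 libraries 24 h replicates 3 and 4 do, so the time effects compared are of groups with different make-up. The 120 were reduced to 0 without TLR2 72 h replicates 1, 3 and 4, without TLR2 72 h replicate 4, without TLR7 24 h replicate 1 or 2, or without TLR7 72 h replicate 4. By other single libraries they were changed over 1.5 times to 13, 9 and 9 without TLR2 24 h replicates 1, 3 and 4, to 46 and 74 without TLR2 72 h replicates 1 and 3, to 217 and 33 without TLR7 24 h replicates 3 and 4, and to 25, 15 and 248 without TLR7 72 h replicates 1, 2 and 3.

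Of the gene lists, 1 of 40 G1/S genes and 4 of 38 mitosis genes were among the 64 genes with a more negative time effect under TLR2. Rrm2, which fell by 1.67 with TLR2, was at 46 to 102 CPM at 24 h and 94.1 to 219 CPM at 72 h with TLR7, a rise of 0.99 there, and the difference of the time effects was -2.66 ± 0.54 (adjusted p = 0.035). Time effects also differed for E2f8, a repressor of E2F targets (-1.38 with TLR2, 1.19 with TLR7, difference -2.58 ± 0.46, adjusted p = 0.022), Fbxo5, an inhibitor of the anaphase-promoting complex (difference -2.43 ± 0.40, adjusted p = 0.0215), Esco2, of sister chromatid cohesion (-2.49 ± 0.50, adjusted p = 0.0332), and the mitotic kinase gene Pbk (-2.43 ± 0.51, adjusted p = 0.0358), whose own difference with TLR7 missed the threshold (0.86, adjusted p = 0.058). Cdk1 and Mad2l1 differed by -1.86 ± 0.37 and -1.46 ± 0.32.

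Other named genes had a more positive time effect under TLR2 than under TLR7. Cxcl10, an interferon-induced chemokine, fell from 18.7 to 85.8 CPM to 0.331 to 0.76 CPM with TLR7, and with TLR2 from 22.4, 47, 31.6 and 31.9 CPM to 9.44, 0.957, 16.1 and 19.3 CPM (-1.53 ± 0.60, adjusted p = 0.0484), a difference of 5.01 ± 0.96 (adjusted p = 0.0254). Without TLR2 72 h replicates 1, 3 and 4, Cxcl10 fell by 5.13 with TLR2 (adjusted p = 0.014), beside -6.54 with TLR7. Its TLR2 fall was lost in every fit without 1 TLR2 library except 72 h replicate 4 (0.0526 to 0.115). Tnfsf8, the CD30 ligand gene, was at 71.7 to 109 and 59.8 to 141 CPM with TLR2, while with TLR7 it fell from 120 to 233 CPM to 9.87 to 33.5 CPM (difference 3.13 ± 0.56, adjusted p = 0.022). Cd69 differed by 1.45 ± 0.34 (adjusted p = 0.0463). Rgs16, a regulator of G protein signalling, differed by 3.63 ± 0.75 (adjusted p = 0.0358). Cdk5r1 and Ifi204, both with means of at most 5.35 CPM in the TLR2 groups, differed by 4.96 ± 1.10 and 5.14 ± 1.14 (adjusted p = 0.0393 each). Without those 3 libraries Cdk5r1 fell by 4.13 with TLR2 (adjusted p = 0.0212), beside -6.07 with TLR7. Ifi204 has similar neighbours whose reads could be split with it.

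Beside one another, the list medians of the 3 kinds of culture ran as follows, and no list was tested for a difference. Over all genes tested, 21.7% rose with TLR2, 8.17% with OVA and 19.0% with TLR7, and 17.4%, 10.4% and 24.2% fell. The medians over all genes were -0.01, 0.09 and -0.01. The list counts stand beside these unequal shares, so they do not by themselves show a difference between the lists. The hypoxia list had medians of 1.41 with TLR2, 0.9 with OVA and 0.99 with TLR7, and 20, 1 and 5 of its 24 genes rose. For G1/S genes they were -1.16, -0.8 and -0.43, with 38, 16 and 5 of 40 falling. For mitosis genes they were 0.24, 0.82 and 1.09, with 6, 13 and 27 of 38 rising. Ribosome biogenesis had -0.92, -1.34 and -1.41, with 18, 39 and 39 of 40 falling, and cytokines had -0.81, -0.97 and -3.38. Type I interferon genes had 0.23, 0.67 and -1.02, with 7, 12 and 0 of 40 rising and 1, 1 and 23 falling.

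**Figure D3:**
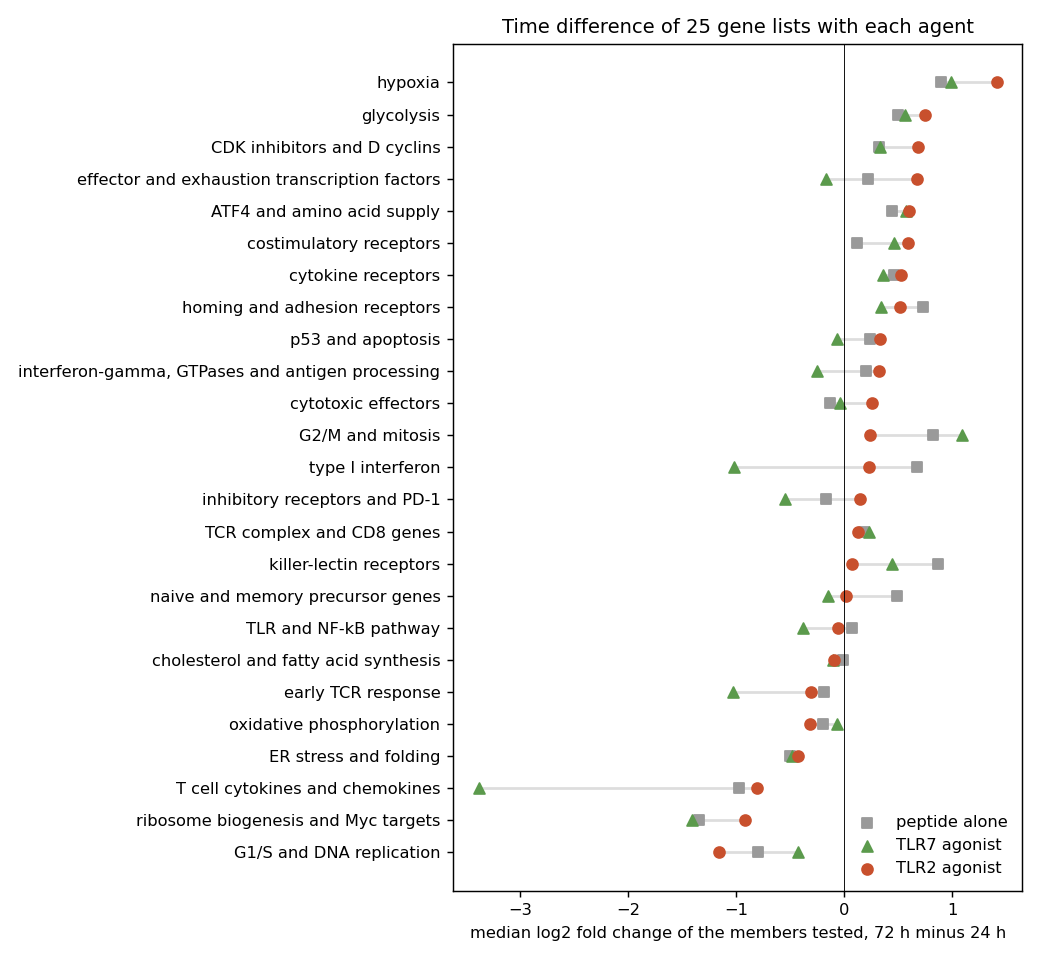
Median log2 fold change from 24 h to 72 h (x axis) of each gene list (rows) with the TLR2 agonist, with peptide alone (OVA) and with the TLR7 agonist (marker shapes and colours). The G1/S medians run -1.16, -0.8 and -0.43 and the mitosis medians 0.24, 0.82 and 1.09, in that order of groups.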

How the data were processed

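The authors deposited expected counts per gene, 1 table per library, as the values themselves show: 28.7% of those above 0 are not whole, and totals differ between libraries. STAR, RSEM and edgeR on build GRCm38 are named in the submitters' processing notes, without versions; the sources used here do not give a strand setting for the counts, so overlapping and antisense genes are uncertain. The kit was stranded and selected poly-A RNA, per the labels' protocols. Expected counts of 48526 genes were rounded. CPM used TMM-scaled library sizes over all 24 libraries, and log2 CPM a prior count of 2.

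Genes were tested with edgeR 4.0.16 (R 4.3.3) by the quasi-likelihood F test in 1 model with a term for each of 6 groups (18 residual degrees of freedom) after filterByExpr with a minimum count of 10 and a minimum total of 15, with Benjamini-Hochberg adjustment over all genes tested and a threshold of 0.05. The common biological coefficient of variation was 0.321. The test was checked on simulated data. SE is the log2 fold change divided by the square root of F. Totals were 10.5 to 27.1 M counts, and 3 counts equal 0.11 to 0.286 CPM. Alternatives were DESeq2 1.42.0, other scalings and filters, the replicate number as a block, and leaving out libraries. Coordinates came from GENCODE M21 (GRCm38), which holds 48144 of the genes, and promoter windows from RefSeq on GRCm38.p6, the first window of each gene. Distances to the start refer to the start site of that RefSeq window. By GENCODE M21 the genes Cdc6, P4ha2 and Nupr1 begin further upstream, so their windows lie within the gene, and the Ddit4 window does in part.

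Members, gene lists and the naming rule were chosen with earlier results of these data known. The rule named the 12 largest rises and 12 largest falls past the threshold with no overlap and at least 5 CPM in a group, up to 3 members a list and direction, up to 5 a direction in each difference of time effects, and always some T cell genes such as Pdcd1 and Il2. A few genes it named are not reported here. Mcm5 and members given with a log2 fold change alone were chosen after their values were seen. Marker sums were compared by 2-sided exact permutation tests.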

Additional observations from a re-analysis of the deposited data

Results flagged for a closer look

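A library stood apart from the other 3 of its group, in CPM, where its gap to the nearest of them exceeded Dixon's critical share of the group's range. Of 268 groups tested (134 genes at each of 2 times), 55 (20.5%) had such a library, 30 of them in 72 h replicate 2; chance alone flags about 1 group in 20. In 72 h replicate 2 the level was high for Cyp2s1 (10.4, others 4.13 to 4.94), Vldlr (55.4, others 24 to 24.2), Sv2c (115, others 37.7 to 41.4), Neb (311, others 124 to 132) and Aldoc (123, others 60.9 to 69.9). Also high in that library were Selenbp1 (51.3, others 26 to 28.8), Tigit (163, others 105 to 114), Lag3 (571, others 384 to 407), Klrd1 (143, others 50 to 58.5) and Il7r (356, others 143 to 156). The same library was above its group for Ifngr1 (396, others 175 to 186), Cxcr4 (98.3, others 46.8 to 52.1), Bcl2 (340, others 157 to 180), Cd3g (619, others 375 to 392) and Cd3d (494, others 329 to 348). It further exceeded the group for Tnip1 (137, others 98.5 to 105), Psmb9 (109, others 75.9 to 80.7), Ccng2 (110, others 39 to 50.2), Cdkn1b (87.5, others 37.9 to 42.3) and Slc2a3 (826, others 352 to 375). High there, too, were P4ha2 (104, others 41.5 to 45.7), Ddit4 (166, others 72.7 to 80.7), Mxi1 (187, others 82.8 to 91.2), Scd2 (1460, others 657 to 738) and Herpud1 (175, others 89.4 to 102). The last high ones were Xbp1 (238, others 129 to 141) and Trp53inp1 (188, others 72.6 to 77.6). That library was low for Cfb (0.344, others 2.17 to 2.45), Ccnd2 (496, others 824 to 876) and Gar1 (21.6, others 75.9 to 83.8).

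In 24 h replicate 2 the level was high for Sv2c (0.704, others 0.326 to 0.376), Neb (2.2, others 1.1 to 1.25), Cd86 (19.8, others 9.24 to 10.3), Ccne2 (95.7, others 41.1 to 47.8), Hoxb2 (15.3, others 1.92 to 2.16) and Chd3os (7.79, others 6.89 to 7.04). Other high genes in 24 h replicate 2 were Neto2 (41, others 22.6 to 24.6), Fancb (38.7, others 23.2 to 24.5), Tnfrsf8 (3.92, others 2.09 to 2.36), Itgb1 (496, others 318 to 342) and Smc2 (365, others 218 to 233). So were Mad2l1 (156, others 109 to 116), Ccng2 (7.44, others 4.56 to 5.01), Cdkn1b (16.3, others 10.6 to 11.4), Trp53inp1 (31.5, others 17.4 to 19.8) and Tfrc (2050, others 1160 to 1240). It was low there for Cd8a (721, others 794 to 796) and Creld2 (51.1, others 66.9 to 70.1). TLR2 24 h replicate 1 was low for Ifngr1 (30.5, others 37.1 to 37.7). TLR2 24 h replicate 3 was high for Cxcr4 (13.9, others 6 to 6.47), Slc16a3 (26.6, others 13.5 to 15.5) and P4ha2 (2.48, others 1.41 to 1.46). TLR2 24 h replicate 3 was low for Tigit (46.2, others 50.2 to 50.9). TLR2 72 h replicate 1 was high for Pdcd1 (104, others 60 to 67.5). TLR2 72 h replicate 4 was high for Ifi204 (3.77, others 0.23 to 0.531). 

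The time effect differed between TLR2 and TLR7 by edgeR's test of the difference, in log2 fold change with TLR2 minus that with TLR7, negatively for Rrm2 (-2.66), Cdk1 (-1.86), Mad2l1 (-1.46), E2f8 (-2.58), Fbxo5 (-2.43), Esco2 (-2.49) and Pbk (-2.43), and positively for Cd69 (1.45), Cxcl10 (5.01), Tnfsf8 (3.13), Ifi204 (5.14), Cdk5r1 (4.96) and Rgs16 (3.63). Of the 120 genes past that threshold, 0 remained without TLR2 72 h replicate 4, TLR7 24 h replicate 1 or 2, or TLR7 72 h replicate 4.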

How the results depend on the processing

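The 5681 genes called between the times stayed within 1.5 times under other scalings, filters, DESeq2, robust fitting and a fit on the TLR2 libraries alone, and fell to 2847 without the 5 shallow libraries. Without single TLR2 libraries they ranged from 1371 to 5200. With the replicate number as a block there were 6026, and 5 of the 109 named calls were lost (Spib, Ifng, Eomes, Tlr7 and Cxcl10, adjusted p 0.0528, 0.0705, 0.0502, 0.0643 and 0.062). Same-numbered libraries of the 2 times correlated at 0.21, 0.03, -0.09 and 0.06, so the numbers do not pair them. The difference from OVA had 0 genes in the fits run except 2 with DESeq2. The 120 genes that differed from TLR7 became 66 with no filter, 56 with the replicate block, 492 with DESeq2, 36 without the 8 libraries between the times, 0 without TLR2 72 h replicates 1, 3 and 4, 0 without the 5 shallow libraries, and 0 to 248 without single libraries. The causes were not tested beyond the smaller number of libraries. Of 109 named genes called, 51 were lost without 72 h replicate 2, 29 without the shallow libraries and 2 to 26 without any other TLR2 library.

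Reversed signs were all in genes near 0 that missed the threshold. Pdcd1 went to -0.01 without TLR2 72 h replicates 1, 3 and 4, with a sign that changed without 24 h replicate 2 or 72 h replicate 1. With library-size scaling Tnf was 0.04, Ccr7 0.1, Myc 0.09 and Tnfsf8 0.07. Without a filter Ccr7 was 0.03 and Myc 0.02; with a stricter one Ccr7 and Myc were 0.05 and Tnfsf8 0.02. Ccr7 was 0 with the replicate block, and without the shallow libraries Ccr7 was 0.05 and Myc 0.02. In the TLR2 libraries alone Ccr7 and Myc were 0.03 and Tnfsf8 0. Over the fits without single libraries, Pdcd1 ran from -0.06 to 0.36, Tnf from -0.24 to 0.1, Ccr7 from -0.11 to 0.08, Myc from -0.13 to 0.07, Tnfsf8 from -0.4 to 0.11 and Ifi204 from -1.84 to 0.22. Ifi204 was past the threshold only without 72 h replicate 4. Since 3 counts equal 0.11 to 0.286 CPM, a level under that in 1 library rests on fewer than 3 counts.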
